A study of Mus musculus with 2 samples.

Results

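Endothelium marked by Mgp, Igfbp3 or Sox17 was examined in dissociated kidneys of 5-week-old mice. Cells were chosen by measured values, namely their transcript counts. Barcodes entered with 500 or more UMIs (unique molecular identifiers, each standing for 1 captured transcript), 200 or more genes and a mitochondrial share of UMIs below 50%. A barcode also needed at least 4 UMIs over 3 or more of the 6 endothelial genes Pecam1, Cdh5, Emcn, Kdr, Egfl7 and Tie1, and fewer than 5 UMIs of the macrophage genes C1qa, C1qb and C1qc. Among these endothelial cells, members had at least 1 UMI of Mgp, Igfbp3 and Sox17 together, and at least as many as of the glomerular endothelial genes Ehd3 and Plat. This chose 245 of 11607 kept cells: 191 of 7236 (2.64%, 95% Clopper-Pearson interval 2.28 to 3.04) in the KO library and 54 of 4371 (1.24%, 0.929 to 1.61) in the WT library.

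The KO library came from kidney of Kif3aΔTub mice, described by the submitters as disease, and the WT library from kidney of wild type control mice. No other allele or treatment is given for either genotype. Kif3a encodes a motor subunit of kinesin-2, which carries cargo along the microtubules of the primary cilium. The promoter that drives the deletion, the exons removed and the number of mice are not given in the sources used here. In both genotypes 1 kidney per mouse was homogenised on ice, red cells were lysed, the tissue was digested with a cold-active protease, and dead cells were removed before capture with the 10x Chromium 3' v3 kit.

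With 1 library per genotype there is no replicate spread. No difference between genotypes was tested, and every interval covers counting error only. Levels are given as CPM, the UMIs of a gene summed over the cells of a group and scaled to 1000000 UMIs of that group, and ratios are log2 KO over WT with 0.5 UMIs added to each sum.

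Blood enters the kidney through arteries and afferent arterioles, passes the glomerular capillaries, and returns through peritubular capillaries, the vasa recta and veins. The endothelium of each segment has its own transcripts. Sox17 encodes a SoxF transcription factor of arterial endothelium, Mgp a matrix Gla protein that inhibits calcification and binds bone morphogenetic proteins, and Igfbp3 a secreted carrier of insulin-like growth factors. Arterial identity is known to rest on VEGF, Notch and SoxF activity, shear stress induces the transcription factors Klf2 and Klf4, and peritubular capillaries are fenestrated by diaphragms built from Plvap.

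Kept cells held 81800126 UMIs in the KO library and 43262363 in the WT library, with medians of 7915 and 7847 per cell and median mitochondrial shares of 7.55% and 26.8%. Members held 1164588 UMIs in KO and 404684 in WT. Their median was 3735 UMIs per cell (693 to 43364) in KO and 3469.5 (714 to 30895) in WT, and their median mitochondrial share was 4.67% and 6.05%. The 5 deepest cells gave 15.0% of the KO members' UMIs and 30.2% of the WT members' UMIs. Scrublet called 11 KO members (5.76%) and 1 WT member (1.85%) doublets, and these were kept because the membership rule does not remove them. The libraries shared 20 cell barcodes, of which 1 was a WT member and none was a member in both. Kif3a gave 29 UMIs in KO members and 6 in WT members, or 24.9 and 14.8 CPM (log2 ratio 0.66, -0.55 to 2.31). The level outside the endothelial cells was 11.9 CPM in KO and 10.2 in WT. A 3' tag need not lie in the deleted part, so this does not check the label.

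Of all endothelial cells, members were 191 of 495 (38.6%, 34.3 to 43.0) in KO and 54 of 154 (35.1%, 27.6 to 43.2) in WT. The ratio of these shares was 1.10 (0.810 to 1.52). As a share of all kept cells the ratio was 2.14 (1.57 to 2.95), and it was 1.28 when the mitochondrial limit was 25%, where 189 of 6418 KO cells (2.94%) and 46 of 2006 WT cells (2.29%) were members. The remaining endothelial cells were 270 in KO and 97 in WT with more Ehd3 and Plat than trio UMIs, hereafter the Ehd3/Plat endothelium, and 34 and 3 with no UMI of the trio, Ehd3 or Plat.

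Just inside the rule, 18 KO and 4 WT members had a single trio UMI, 5 KO and 0 WT members had as many Ehd3 and Plat UMIs as trio UMIs, and 25 KO and 4 WT members had 1 more trio UMI. Just outside it, 3 KO and 0 WT endothelial cells had 1 trio UMI fewer than Ehd3 and Plat UMIs, and the 34 KO and 3 WT cells with no UMI of any of these genes were also 1 trio UMI short.

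The endothelial label was compared with marker genes. All 10 of 10 endothelial markers were found in the members of each library, at a summed 6253 CPM in KO and 5805 in WT, and Pecam1, an adhesion molecule of endothelial junctions, was detected in 174 of 191 KO members and 51 of 54 WT members at 981 and 887 CPM. The membership rule used 6 of these genes, so the values are a description. Of the markers the rule did not use, Esam, an endothelial adhesion molecule, stood at 430.2 CPM in KO and 358 in WT, and Eng, a TGF-beta co-receptor, at 386 and 227. The 1 WT member without Sox17 did not match the label as well, with endothelial markers at 991 CPM, Kdr, Cldn5, Esam and Eng at 0, and thick ascending limb markers at 23248 CPM. It meets the rule and was kept, and the values over members with Sox17 leave it out. Outside the endothelial cells, Pecam1 stood at 1.45 CPM in KO and 0.588 in WT. Nphs1 and Wt1 of podocytes and the lymphocyte markers were at 0 in the members of both libraries. Podxl, listed with podocytes and also with general endothelium, stood at 440 CPM in KO members and 801 in WT members. Of 7 mural cell markers, Pdgfrb, Myh11 and Ren1 were at 0 in both and the other 4 were detected in both, at a summed 155 CPM in KO members and 66.7 in WT members, mostly Acta2 (137 and 42.0). RNA of other kidney cells was present and differed between the libraries. Injured tubule markers summed to 6079 CPM in KO members and 339 in WT members (23159 and 1480.2 outside the endothelium), with Lcn2, Havcr1, Krt19 and Cldn4 at 0 in WT members. Principal cell markers summed to 867 and 12.4, macrophage markers to 180 and 0, proximal tubule markers to 403 and 5335, and thick ascending limb markers to 61.0 and 1006. Nearly all of the thick ascending limb RNA of WT members lay in the 1 WT member without Sox17, since WT members with Sox17 summed to 20.6 against 71.7 in KO members with Sox17. For each of these 5 cell types the library with more of the RNA in members also had more of it outside the endothelium. For the thick ascending limb this rested on that 1 WT member. Outside the endothelium its markers summed to 948 in KO and 1749 in WT, the reverse of the order in members with Sox17. Some other cell types did not keep the order. Distal convoluted tubule markers summed to 58.4 in KO members and 17.3 in WT members, against 257 and 478 outside the endothelium. Mural cell markers, higher in KO members, summed to 209 and 217 outside it. The part of the RNA of any of these cell types in the results below was not tested. The level outside the endothelium is given beside many of the genes for which it was near or above the level in members.

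The members differed in which gene of the trio they carried. Sox17 was found in 129 KO members (67.5%, 60.4 to 74.1) and in 53 WT members (98.1%, 90.1 to 100.0). Igfbp3 was found in 131 KO members (68.6%) and 22 WT members (40.7%), and Mgp in 53 (27.7%) and 14 (25.9%). After each cell was thinned to 1000 UMIs, which left out 4 KO and 2 WT members, Sox17 was found in 44.4% of KO members and 73.1% of WT members, Igfbp3 in 47.6% and 19.2%, and Mgp in 18.2% and 23.1%. In proximal tubule cells, which should lack these genes and had median depths of 10285 UMIs in KO and 9599 in WT, the unthinned shares were 0.507% and 0.0728% for Sox17, 0.811% and 0.328% for Igfbp3, and 2.63% and 0.255% for Mgp.

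Cells with Igfbp3 as the only trio gene were 46 in KO and 1 in WT, those with Mgp alone 10 and 0, and those with Mgp and Igfbp3 but no Sox17 6 and 0. Cells with Sox17 alone were 28 of 191 in KO and 23 of 54 in WT. Members without Sox17 were therefore 62 in KO (32.5%) and 1 in WT (1.85%), at a median depth of 2874.5 UMIs in KO against 4153 UMIs in KO members with Sox17. Because the mix of admitting genes differed, the main comparisons below are given over all members and again over the 129 KO and 53 WT members with a Sox17 UMI. The mix still differed among these. Sox17 was the only trio gene in 28 of the 129 KO and 23 of the 53 WT cells. Igfbp3 and Sox17 without Mgp were found in 64 and 16, and all 3 genes in 15 and 5. The part of this remaining difference in the results over members with Sox17 was not tested.

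**Figure D1:**
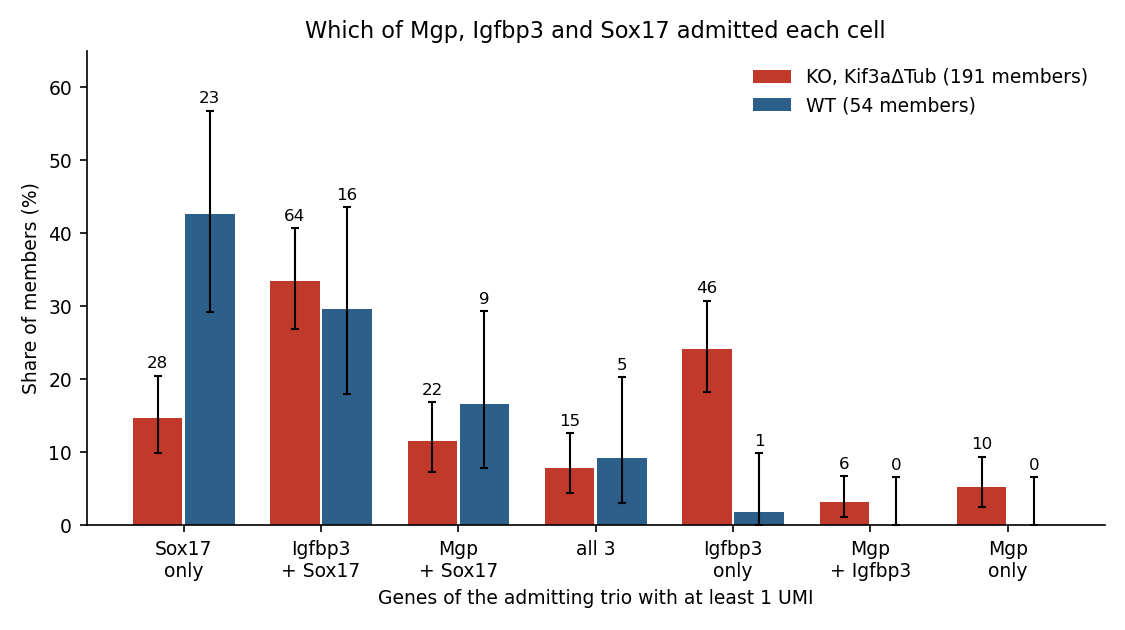
Share of members in percent, by which of Mgp, Igfbp3 and Sox17 had at least 1 UMI, in KO (left bars) and WT (right bars). Error bars are 95% Clopper-Pearson intervals and the number above each bar is the count of cells. The 3 classes without Sox17 held 62 KO members and 1 WT member.

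In the KO library, most measured arterial genes were higher in members with Sox17, and most capillary and venous genes in members without it. Of 7212 genes with at least 20 UMIs over these KO members, 8.51% were at least 2-fold higher with Sox17, relative to the median gene, and 5.66% at least 2-fold lower. On the arterial list, 14 of 19 measured genes were at least 2-fold higher with Sox17 and 0 lower, with a median log2 ratio of 2.33. On the capillary and venous list, 10 of 17 were at least 2-fold lower with Sox17 and 2 higher, with a median of -1.28. Gja4 and Gja5, which encode the arterial gap junction proteins connexin 37 and connexin 40, stood at 202 and 157 CPM with Sox17 and each gave 1 UMI without it (4.11 CPM), at log2 ratios of 5.04 (3.12 to 10.93) and 4.68 (2.76 to 10.57). Bmx, a tyrosine kinase of arterial endothelium, gave 96 UMIs with Sox17 and 0 without, at least 8.46-fold higher against a floor of 3 UMIs. Pi16 gave 131 and 0, at least 11.5-fold higher. In the other direction, Plvap stood at 421 CPM with Sox17 and 2374 without (log2 -2.49, -2.68 to -2.31). Nr2f2, the venous transcription factor COUP-TFII, stood at 46.7 and 279 (-2.57, -3.17 to -2.01), and Aplnr, the apelin receptor, at 49.9 and 209 (-2.07, -2.68 to -1.46). The scavenger receptor gene Stab1 had 45.6 and 218 CPM, and F8, coagulation factor VIII, 27.1 and 205. The groups were formed on Sox17, so its own difference is set by the split.

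Among members with Sox17, those that also carried Mgp (37 KO and 14 WT cells) had more of the elastic fibre transcripts in both libraries. Mural cell markers also summed higher with Mgp, to 359 CPM in KO and 114 in WT, against 44.2 and 49.2 without it. Injured tubule markers summed to 9514 and 219 with Mgp, against 2856 and 279.99 without it, and the part of either in these differences was not tested. Eln, which encodes elastin, stood at 2471 CPM in KO and 1558 in WT with Mgp, against 98.4 and 208 without it. Fbln5, which organises elastic fibres, stood at 898 in KO and 1526 in WT with Mgp, against 279 and 276 without. Stmn2 gave 347 and 690 with Mgp, against 34.1 and 30.3 without, and Jag1, a Notch ligand, 258 and 674, against 86.4 and 87.0. Fabp4, a fatty acid binding protein of capillary endothelium, ran the other way, with 1855 in KO and 1574 in WT with Mgp, against 8824 and 4654 without. The descending vasa recta genes Aqp1 and Slc14a1 did not keep the same order in the 2 libraries. Aqp1, a water channel, stood at 765 in KO and 48.7 in WT with Mgp, against 560 and 1540 without. Slc14a1, a urea transporter, gave 51 UMIs in 3 KO cells and 0 in WT with Mgp, against 38 UMIs in 8 KO cells and 72 UMIs in 7 WT cells without it.

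**Figure D2:**
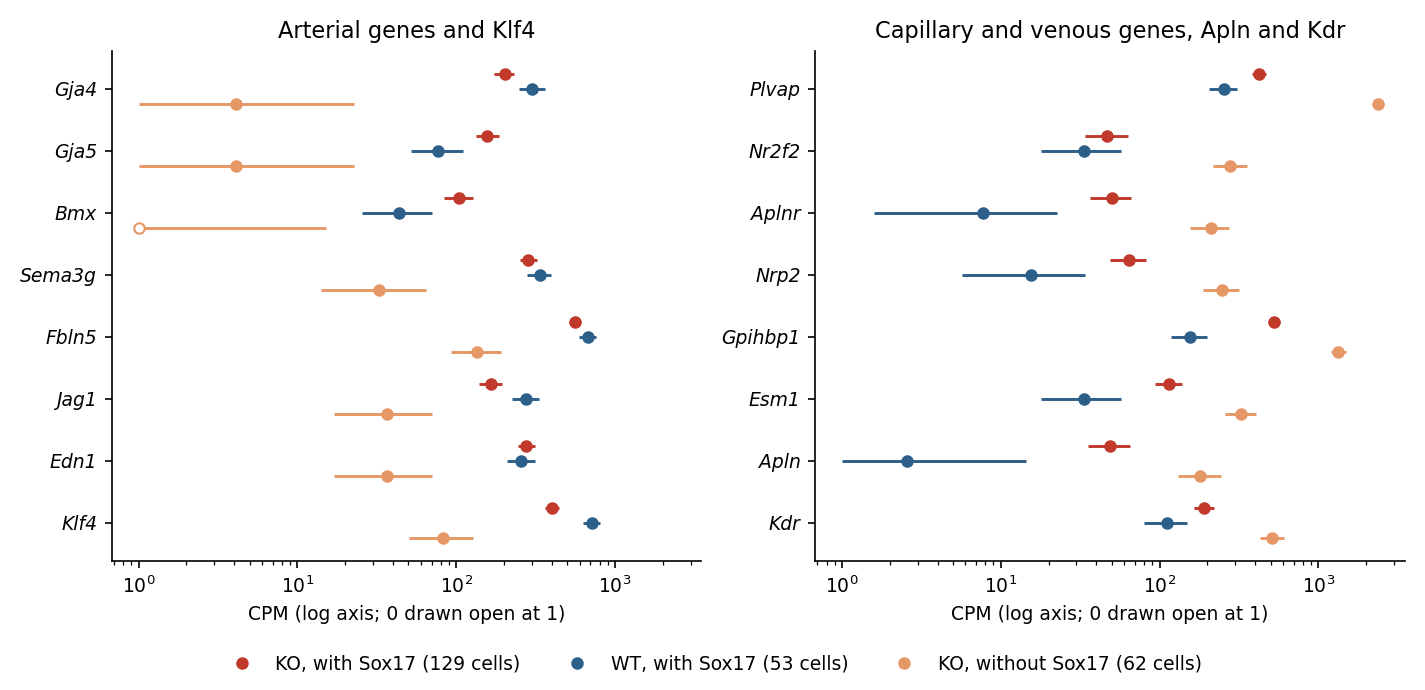
Levels in CPM (log axis, 0 drawn as an open circle at 1) in KO members with Sox17, WT members with Sox17 and KO members without Sox17, for arterial genes and Klf4 (left) and capillary and venous genes, Apln and Kdr (right). Error bars are 95% exact Poisson intervals, with lower ends under 1 drawn at 1. Gja4 stood at 202, 302 and 4.11 CPM in the 3 groups, and Plvap at 421, 253 and 2374.

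Between genotypes, 8154 genes had at least 20 UMIs over the members of both libraries. Of these, 656 (8.05%) were at least 2-fold higher in KO and 473 (5.80%) at least 2-fold lower, relative to the median gene, whose log2 ratio was 0.05. Over members with Sox17, 568 of 7506 (7.57%) were higher and 406 (5.41%) lower, and in the Ehd3/Plat endothelium 796 of 8506 (9.36%) and 390 (4.58%). In all members, 97 of the genes called higher and 166 of those called lower had more than 25% of the UMIs of the higher library in 1 cell. The same comparison was run under 19 other choices of cells, weights and limits, and the genes described as at least 2-fold different were so, in the same direction, in 16 or more of the 19 unless a smaller number is given. This counts alternatives in which a gene fell below the UMI minimum. Rasa4, Cd1d1, Pald1, Abcc9, Exoc3l4, Tmem173 and Inhbb met the minimum in 9 to 14 of the 19, and Cfd, Car3 and Hp in 14. Where a list is described, the members with the largest ratios are named. Each list count below stands beside the shares of all genes, 8.05% higher and 5.80% lower over all members. Over members with Sox17 these shares were 7.57% and 5.41%.

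The 12 genes with the highest ratios included Cfd, Car3, Hp, AA467197, Adipoq, Lrg1, Egr1, C4b, Sele, Irf8 and Mrap. In 9 of them a single cell held more than 50% of the KO UMIs, and Adipoq, C4b and Mrap were at least 2-fold higher in 13 of the 19 alternatives. Cfd (adipsin), the first, gave 1380 UMIs in KO and 0 in WT, but 99.1% of the KO UMIs came from 1 of 13 cells. Cfd, Adipoq, Car3 and Mrap are known from fat cells, and 2 KO members and 0 WT members held at least 5 UMIs of the adipocyte genes Cfd, Adipoq, Car3 and Cidec. The genes described next by their ratios, up to the plot of gene levels, therefore had at most 25% of the UMIs of the higher library in 1 cell over all members, a limit chosen after the values had been seen.

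Under this limit AA467197 had the highest ratio over all members, followed by Lrg1, which was seen in the most cells of the 12 higher genes named. It encodes leucine-rich alpha-2-glycoprotein, a secreted protein that modulates TGF-beta signalling in vessels. It gave 404 UMIs in 83 of 191 KO members and 2 UMIs in 2 of 54 WT members, or 347 and 4.94 CPM (log2 5.81, 4.27 to 9.18). With only the Sox17 members it stood at 272 and 5.16 (5.40, 3.85 to 8.78). The Ehd3/Plat endothelium had 194 CPM in KO and 274 in WT (-0.51), from 94 of 270 and 19 of 97 cells. As a group, WT Ehd3/Plat cells thus had a summed Lrg1 level near that of KO members, while WT members did not. That difference between the endothelial groups was not tested. After thinning to 1000 UMIs, 20.3% (14.8 to 26.8) of KO members and 0 of 52 WT members had an Lrg1 UMI, and the WT count allows a share of up to 6.85%. The unthinned shares were 43.5% and 3.70%. In proximal tubule cells the thinned shares were 0.511% and 0.223% and the unthinned 4.56% and 2.73%.

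Apln, which encodes the ligand of the apelin receptor and marks sprouting and activated capillaries, gave 89 UMIs in 26 KO members and 1 UMI in 1 WT member, or 76.4 and 2.47 CPM (4.37, 2.44 to 10.27). Over members with Sox17 it stood at 48.9 and 2.58 (3.67, 1.69 to 9.58). There 1 of the cells held 40.0% of the KO UMIs, and without it 27 UMIs or 29.3 CPM were left in KO against the same 1 UMI in WT (2.95), a setting added after the data had been seen. In the Ehd3/Plat endothelium it gave 33 UMIs in KO and 0 in WT, at least 2.80-fold higher. Its receptor gene Aplnr stood at 83.3 in KO and 7.41 in WT, from 46 and 3 cells (3.28, 1.90 to 5.79), and over members with Sox17 at 49.9 and 7.74 (2.48, 1.05 to 5.02). Both genes of this ligand and receptor pair were thus higher in KO members, over all members and over those with Sox17.

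The promoter windows of Lrg1 and Apln are shown. Both genes encode secreted factors with a known role in vessels. Lrg1 and Apln were seen in 83 and 26 of 191 KO members and in 2 and 1 of 54 WT members. The sequences are RefSeq's for build GRCm38.p6, each of 300 bases around the annotated start site and on the gene's strand: chr17:56121897-56122196 (minus strand) for Lrg1 and chrX:48034804-48035103 (minus strand) for Apln. Capitals mark the only match to ACGTG, the core of a hypoxia response element, which lies on the opposite strand at position -226 from the Lrg1 start site.
Lrg1: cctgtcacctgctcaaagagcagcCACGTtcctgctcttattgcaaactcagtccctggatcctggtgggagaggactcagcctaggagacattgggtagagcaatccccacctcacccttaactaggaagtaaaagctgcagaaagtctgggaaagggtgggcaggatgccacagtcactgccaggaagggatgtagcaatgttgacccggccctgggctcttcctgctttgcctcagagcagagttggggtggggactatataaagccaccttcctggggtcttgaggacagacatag
Apln: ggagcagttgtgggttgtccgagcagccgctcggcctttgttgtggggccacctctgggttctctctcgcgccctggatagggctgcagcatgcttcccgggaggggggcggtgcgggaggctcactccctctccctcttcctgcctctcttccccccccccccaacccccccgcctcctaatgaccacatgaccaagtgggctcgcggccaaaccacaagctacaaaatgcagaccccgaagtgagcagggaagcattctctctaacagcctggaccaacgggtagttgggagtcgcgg
TTCNNNGAA, the spaced palindrome bound by STAT factors, was in neither window, and the Apln window held neither motif. The windows of Ptn and Adamts9, described below, were searched too, held neither motif and are not shown. Both strands were searched. Over 32851 promoter windows of the same length, 8.30% held TTCNNNGAA and 19.6% held ACGTG. A match is a description of letters and not a site.

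Other genes higher in KO members were Ptn, Adamts9 and AA467197. Ptn, pleiotrophin, a heparin-binding growth factor, gave 287 UMIs in 23 KO members and 4 in 1 WT member, or 246 and 9.88 CPM (4.47, 3.27 to 6.53). Adamts9, a secreted metalloprotease, gave 71 UMIs in 46 KO members and 1 UMI in 1 WT member, or 61.0 and 2.47 (4.05, 2.10 to 9.95). In the Ehd3/Plat endothelium Ptn stood at 7.42 CPM in KO and 8.74 in WT, and Adamts9 at 9.64 and 8.74. AA467197 gave 86 UMIs in 25 KO members and 0 in WT (at least 9.96-fold higher), Exoc3l4 31 and 0 (at least 3.59-fold), Tmem173, which encodes the innate immune adaptor STING, 30 and 0 (at least 3.47-fold, with 25.8 CPM in KO members and 22.5 outside the endothelium in KO), and Inhbb, the inhibin beta B subunit of activin B, 29 UMIs in 19 cells and 0 (at least 3.36-fold). Pald1, Cd1d1, Rasa4 and Abcc9 gave 22 to 25 UMIs in KO and 0 in WT. Over members with Sox17, Adamts1, an anti-angiogenic metalloprotease, was also on the list, at 156 and 23.2 CPM (2.68, 1.79 to 3.91). Outside the endothelium Adamts1 stood at 81.0 in KO and 9.20 in WT, so it was also higher there in the KO library.

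Among the genes lower in KO members were Wipf3, H2-Q7, Sox5, Eps8l2, Lurap1l, Ecm2, Pla2g4a, Phf1, Prickle1, Lef1, Ptprr and Nr1d1. Eps8l2 stood at 27.5 CPM in KO and 124 in WT, against 94.5 and 51.5 outside the endothelium, and Pla2g4a at 18.9 and 71.7, against 39.97 and 4.87. Ptprr, a receptor-type tyrosine phosphatase, stood at 117 CPM in KO and 418 in WT, from 49 and 33 cells (-1.84, -2.17 to -1.504). Its ratio was -1.57 over members with Sox17. Ptprr was also one of the genes with 1 UMI only in KO members without Sox17. Lef1, a transcription factor of the Wnt pathway, stood at 40.4 and 146 (-1.85, -2.44 to -1.28), and Nr1d1, the clock repressor REV-ERBalpha, at 39.5 and 131 (-1.73). H2-Q7, a non-classical class I antigen-presenting gene, stood at 24.04 and 119 (-2.29, -3.03 to -1.60), and the Ehd3/Plat endothelium gave -3.48. H2-Q7 has near-identical neighbours, so its reads may be split among them.

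**Figure D3:**
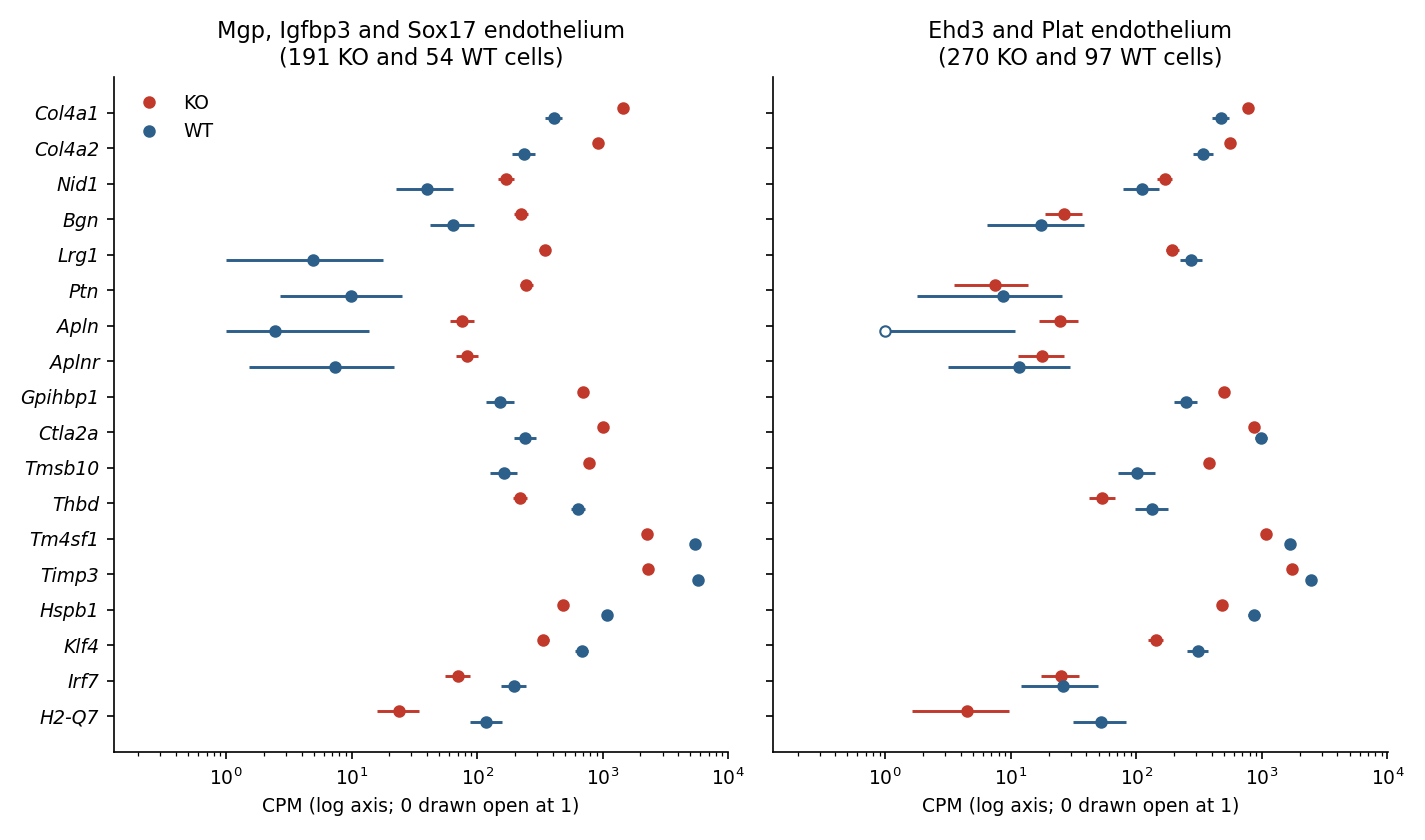
Levels in CPM (log axis, 0 drawn as an open circle at 1) of 18 genes in KO and WT cells, for the Mgp, Igfbp3 and Sox17 endothelium (left) and the Ehd3/Plat endothelium (right). Error bars are 95% exact Poisson intervals, with lower ends under 1 drawn at 1. Lrg1 stood at 347 CPM in KO and 4.94 in WT on the left, and at 194 and 274 on the right.

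Of 27 measured basement membrane and matrix genes of 29 on the list, 10 were at least 2-fold higher in KO members, 2 were lower and 15 passed neither way, with a median log2 ratio of 0.74. Over members with Sox17 the counts were 10 and 1 of 27 with a median of 0.70, and in the Ehd3/Plat endothelium 0 and 2 of 23 with a median of 0.08. Col4a1 and Col4a2 encode the 2 chains of the collagen IV network under every endothelium. Col4a1 stood at 1443 CPM in KO and 410.2 in WT (1.81, 1.58 to 2.05), and at 1208 and 423 over members with Sox17. Col4a2 stood at 926 and 235 (1.97, 1.68 to 2.30). Their ratios were 0.72 and 0.70 in the Ehd3/Plat endothelium. After thinning, 70.1% of KO members and 26.9% of WT members had a Col4a1 UMI, against 21.7% and 7.98% of proximal tubule cells. The unthinned shares were 90.1% and 72.2% in members.

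Nid1, the nidogen that links laminin to collagen IV, stood at 171 in KO and 39.5 in WT (2.07, 1.38 to 2.95), and Bgn, the small proteoglycan biglycan, at 224 and 64.2 (1.78, 1.22 to 2.44), from 60 and 5 cells. The ratios of this pair were 1.51 and 1.41 over members with Sox17. The laminin chain genes Lama4 and Lamb1 gave 1.98 and 2.01, with 5 and 6 UMIs in WT members, and Lamb1 was above its member level outside the endothelium (115 and 38.9 CPM). Sparc, a collagen-binding protein, stood at 3819 and 2202 (0.79, 0.69 to 0.90). Timp3, an inhibitor of metalloproteases, was lower, at 2290.1 in KO and 5772 in WT (-1.33, -1.41 to -1.25). Its ratio was -1.16 over members with Sox17 and -0.48 in the Ehd3/Plat endothelium. Fbln2, the other matrix gene at least 2-fold lower relative to the median gene, stood at 237 and 465 (-0.97, 13 alternatives).

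The capillary and venous list had the highest median of the lists measured. Of 17 measured genes of 18, 11 were at least 2-fold higher in KO members and 0 lower, with a median of 2.12. Over members with Sox17 the counts were 8 and 0 of 16 with a median of 1.22, and in the Ehd3/Plat endothelium 5 and 2 of 13 with a median of 0.49. Apln, Aplnr, Nrp2 and Esm1 are on this list and on the VEGF list. Within KO, 10 of 17 genes of this list were at least 2-fold higher in members without Sox17 than in those with it, and 2, Sele and Npr3, were lower. Members without Sox17 were 32.5% of KO members and 1.85% of WT members. Plvap stood at 829 CPM in KO and 259 in WT over all members (1.67, 1.38 to 1.98) and at 421 and 253 over members with Sox17 (0.73). In the Ehd3/Plat endothelium it ran the other way, at 35.6 and 84.5 (-1.26, -1.94 to -0.53), where 93.1% of the WT UMIs came from 1 cell. Nr2f2 stood at 95.3 and 42.0 over all members (1.15), with 56.2 and 85.04 outside the endothelium, and gave 0.44 over members with Sox17.

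Gpihbp1, which carries lipoprotein lipase to the capillary surface, kept more of its difference. It stood at 696 CPM in KO and 153 in WT (2.17, 1.81 to 2.58), and at 525 and 155 over members with Sox17 (1.75). After thinning it was found in 40.1% of KO members and 11.5% of WT members, and in 0.102% and 0 of proximal tubule cells. The unthinned shares were 54.5% and 24.1%. Vwf, von Willebrand factor, stood at 87.6 and 17.3 (2.25, 1.25 to 3.69), and Esm1, a secreted proteoglycan of VEGF-stimulated endothelium, at 159 and 32.1 (2.26, 1.496 to 3.24). With only the Sox17 members, Vwf gave 2.00 and Esm1 1.73 (115 and 33.5 CPM). Esm1 stood at 173 and 2.91 in the Ehd3/Plat endothelium. Selp, P-selectin, gave 26 UMIs in KO and 1 in WT (2.62, 0.57 to 8.53), and 9 and 1 over members with Sox17, too few to be compared. Sele, E-selectin, gave 49 and 0 UMIs over all members, with 95.9% of the KO UMIs in 1 cell. Fabp4 stood at 6100.0 and 3639.9 (0.74), and at 0.01 when cells were weighted equally.

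**Figure D4:**
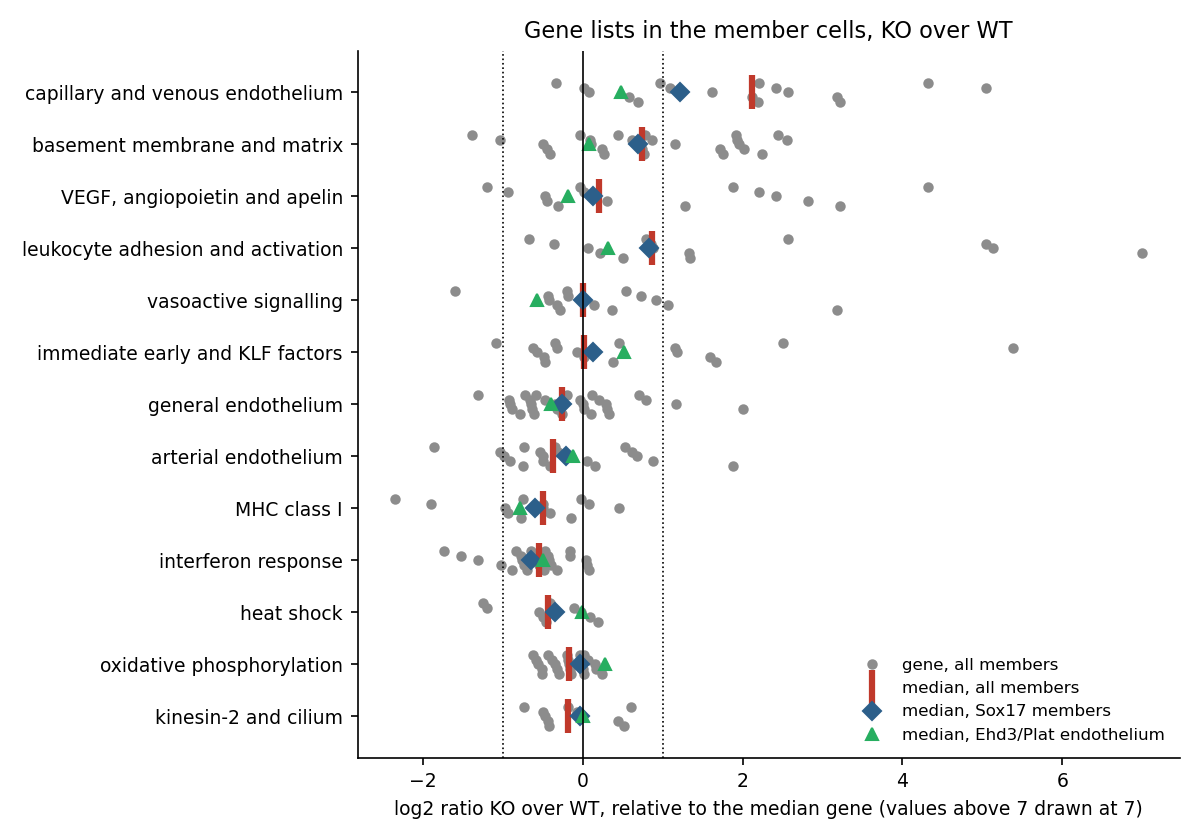
Log2 ratio KO over WT relative to the median gene for the genes of each list over all members (grey points), with medians over all members (bar), over members with Sox17 (diamond) and in the Ehd3/Plat endothelium (triangle). Dotted lines mark 2-fold, and values above 7 are drawn at 7. The capillary and venous list had medians of 2.12, 1.22 and 0.49 in the 3 groups, and the matrix list 0.74, 0.70 and 0.08.

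On the VEGF, angiopoietin and apelin list, 7 of 16 measured genes were at least 2-fold higher in KO members and 1 lower, with a median of 0.21, and over members with Sox17 the counts were 7 and 2 of 16 with a median of 0.13. Tie1 is on this list and in the membership rule. Besides Apln and Aplnr, the higher genes were Angpt2, Nrp2, Esm1, Unc5b and Flt4. Angpt2, the angiopoietin that antagonises Tie2, stood at 62.7 CPM in KO and 7.41 in WT (2.87, 1.48 to 5.39). Nrp2, a neuropilin co-receptor, stood at 102 and 17.3 (2.47, 1.47 to 3.91), and Flt4, VEGF receptor 3, at 52.4 and 19.8 (1.33). Over members with Sox17 their ratios were lower, at 1.87 for Angpt2 (32.6 and 7.74 CPM, with 33.3% of the KO UMIs in 1 cell), 1.95 for Nrp2 (64.1 and 15.5) and 1.22 for Flt4. The VEGF receptor gene Flt1 stood at 676 and 605 (0.16), and the ligand gene Vegfa was lower, at 29.2 and 64.2 (-1.14, -1.92 to -0.34), below its level outside the endothelium of 38.1 and 82.2.

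The arterial list stayed close to the shares of all genes. Of 20 measured genes, 1 was at least 2-fold higher in KO members and 2 lower, with a median of -0.37, and over members with Sox17 the counts were 2 and 1 with a median of -0.20. Gja4 stood at 161 CPM in KO and 289 in WT (-0.85) and Jag1 at 138 and 262 (-0.92). Gja5 stood at 125 and 74.1 (0.74), and its ratio ran from -1.55 to 1.09 over the alternatives. Hey2, a Notch target, stood at 7.73 and 27.2 (-1.80) from 9 and 11 UMIs. Dll4, a Notch ligand of arteries and sprouting tips, stood at 86.7 and 56.8 (0.59, -0.05 to 1.33). On the Notch list 0 of 12 genes were at least 2-fold higher and 1 lower, and over members with Sox17 0 and 2 of 11.

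The shear-responsive genes Klf4, Klf2 and Thbd were lower in KO members. Klf4 stood at 337 CPM in KO and 684 in WT (-1.02, -1.25 to -0.80), with -0.82 over members with Sox17 and -1.12 in the Ehd3/Plat endothelium, and was at least 2-fold lower in 13 alternatives only. Klf2 stood at 1960.3 and 2809.6 (-0.52, -0.62 to -0.42), with -0.44 in the Ehd3/Plat endothelium. Within KO, Klf2 stood at 2241 in members with Sox17 and 900 in members without it. The part of the Sox17 mix in its ratio was not tested. Thinned to 1000 UMIs, 62.03% of KO members and 82.7% of WT members had a Klf2 UMI, against 0.613% and 0.0742% of proximal tubule cells, and the unthinned shares in members were 80.1% and 98.1%. Thbd, thrombomodulin, the thrombin receptor that activates protein C and a known target of both factors, stood at 219 and 638 (-1.54, -1.80 to -1.29). It gave -1.52 over members with Sox17 and -1.33 in the Ehd3/Plat endothelium. Nos3, the endothelial nitric oxide synthase, stood at 97.03 and 106 (-0.14), and Edn1, endothelin 1, at 227 and 247 (-0.13). Within KO, Nos3 stood at 113 in members with Sox17 and 37.0 without it, and Edn1 at 277 and 37.0. Thbd, Nos3 and Edn1 are on the vasoactive list, where 2 of 15 measured genes were at least 2-fold higher and 1, Thbd, lower. Over members with Sox17 the counts were 1 and 1 of 15. The higher ones were Npr3, with 40 UMIs in KO and 1 in WT (3.23, 1.24 to 9.14), and Ednrb, the endothelin B receptor, at 179 and 81.5 CPM (1.12, 0.60 to 1.71, 15 alternatives).

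Several immediate early genes were higher, unlike Klf4 and Klf2. Of 17 measured genes on the joint list, 6 were at least 2-fold higher and 1, Klf4, lower, with a median of 0.01, and over members with Sox17 6 and 0 of 17 with a median of 0.13. Egr1 gave 62 UMIs in 23 KO members and 0 in WT (at least 7.18-fold higher), of which 25.8% came from 1 cell, with 44.9 CPM in KO and 2.05 in WT outside the endothelium. Junb stood at 185 and 79.1 (1.21), Cebpd at 207 and 86.5 (1.24, 15 alternatives) and Cebpb at 77.3 and 22.2 (1.73, 15 alternatives). Outside the endothelium Junb stood at 144 and 10.2, Cebpd at 117 and 9.69, and Cebpb at 157 and 25.5, so each of these genes was also higher there in the KO library.

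Of 17 measured endothelial transcription factors, 1, Nr2f2, was at least 2-fold higher in KO members and 2, Gata2 and Tcf15, lower, with a median of -0.07, and over members with Sox17 the counts were 0 and 3. The SoxF genes did not reach 2-fold over all members. Sox18 stood at 318 CPM in KO and 571 in WT (-0.85), with -1.002 over members with Sox17 and -1.10 in the Ehd3/Plat endothelium, and Sox7 at 35.2 and 61.8 (-0.82). Gata2 stood at 85.9 and 175 (-1.03) and Tcf15, a transcription factor of capillary fatty acid uptake, at 30.9 and 93.9 (-1.60, -2.30 to -0.91). Of 29 general endothelial genes, 2 (6.90%) were at least 2-fold higher and 1 (3.45%) lower, with a median of -0.26, and over members with Sox17 2 and 2. Over all members these shares lay below the 8.05% and 5.80% of all genes. The lower gene was Tm4sf1, a tetraspanin-like surface protein, at 2275 and 5412 (-1.25, -1.33 to -1.17). The higher genes were Ctla2a, at 1014 and 242 (2.06, 1.77 to 2.38), and the sialomucin gene Cd34, at 669 and 287 (1.22, 0.94 to 1.52). These 2 genes gave 1.90 and 1.14 over members with Sox17. In the Ehd3/Plat endothelium Ctla2a gave -0.19 and Cd34 -0.32, and the difference between the endothelial groups was not tested.

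No MHC class I or interferon gene was at least 2-fold higher in KO members, and a few were lower. On the MHC class I list 2 of 13 measured genes, H2-Q7 and H2-Q6, were at least 2-fold lower, with a median of -0.50, and over members with Sox17 2 of 13 with a median of -0.60. In the Ehd3/Plat endothelium 3 of 11 were lower with a median of -0.79. H2-K1 stood at 703 CPM in KO and 1129 in WT (-0.68, -0.85 to -0.52) and B2m, the shared light chain, at 474 and 640.0 (-0.43). On the interferon list 4 of 25 were lower, with a median of -0.55, against 2 of 24 over members with Sox17, with a median of -0.64. Irf7, a transcription factor of the type I interferon response, stood at 70.4 and 195 (-1.47, -1.93 to -1.01), with -1.56 over members with Sox17 and -0.11 in the Ehd3/Plat endothelium. Igtp, an interferon-induced GTPase, stood at 15.5 and 49.4 (-1.67).

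On the leukocyte adhesion and activation list, 6 of 14 measured genes of 26 were at least 2-fold higher in KO members and 0 lower, with a median of 0.87, and over members with Sox17 6 and 0 of 12 with a median of 0.83. Lcn2, lipocalin 2, gave 2032 UMIs in 64 KO members and 0 in WT (at least 235-fold higher), and 36.4% of the KO UMIs came from 1 cell. Outside the endothelium it stood at 4142 CPM in KO and 4.75 in WT, above the 1745 of KO members. At 1000 UMIs, 16.04% of KO members and 11.95% of KO proximal tubule cells had an Lcn2 UMI. C3 had 98.1% of its KO UMIs in 1 cell (13 alternatives), and Sele 95.9%. Selp is given above. Vcam1 had 36.05% of its KO UMIs in 1 cell (14 alternatives), and Csf1, the macrophage growth factor, stood at 22.3 and 7.41 CPM (1.396, -0.12 to 3.96, 14 alternatives), with 30.8 and 0.494 outside the endothelium. Icam1, the leukocyte adhesion molecule, stood at 30.9 and 24.7 (0.27, -0.72 to 1.499).

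**Figure D5:**
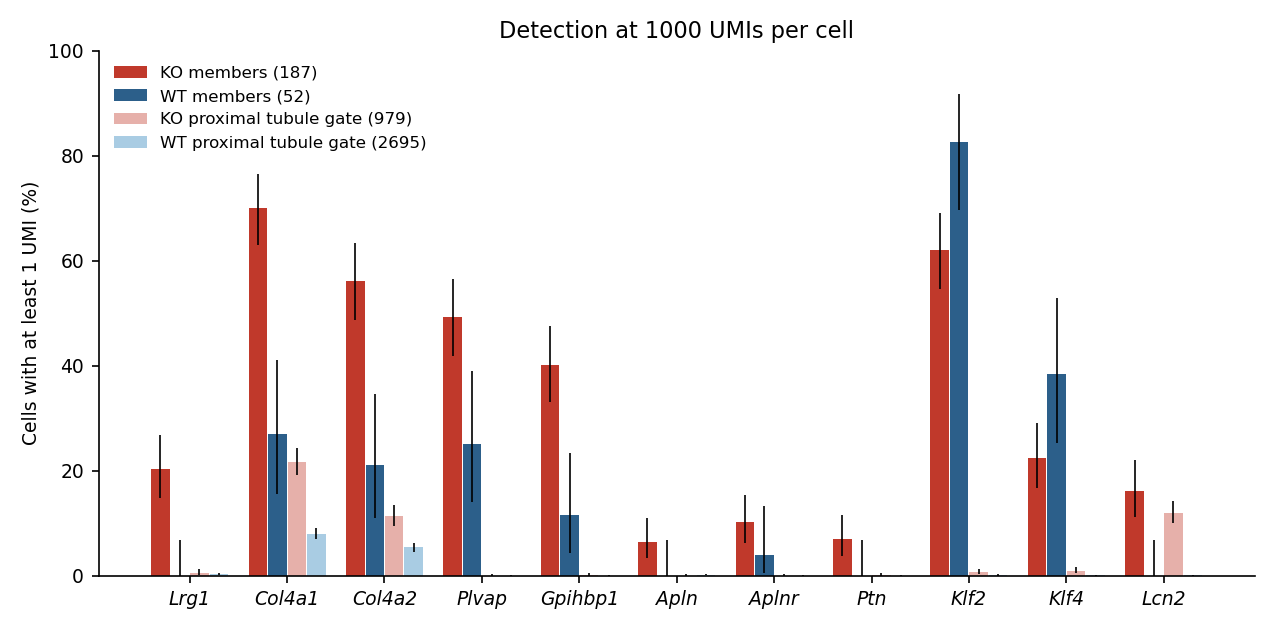
Share of cells with at least 1 UMI after thinning to 1000 UMIs, in KO members (187 cells), WT members (52), KO proximal tubule cells (979) and WT proximal tubule cells (2695). Error bars are 95% Clopper-Pearson intervals. Lrg1 was found in 20.3% of KO members and 0 of 52 WT members, while Lcn2 was found in 16.04% of KO members and 11.95% of KO proximal tubule cells.

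Growth factor carriers and cytoskeletal genes differed in single members. Of 7 measured IGF genes, 3 were at least 2-fold higher and 1 lower, with the same counts over members with Sox17. Insr, the insulin receptor, stood at 96.2 CPM in KO and 24.7 in WT (1.90, 1.03 to 3.06), with 25.1 and 32.3 outside the endothelium. It gave 1.69 over members with Sox17 and -0.89 in the Ehd3/Plat endothelium. Igfbp7 stood at 2639.6 and 1079.8 (1.29), with 1380.2 and 1394 outside the endothelium, and Igfbp5 at 136 and 368 (-1.44), with 68.7 and 222 outside. On the actin, annexin and S100 list 4 of 21 were higher and 0 lower, and over members with Sox17 3 and 0. Tmsb10, an actin-sequestering peptide, stood at 783 and 163 (2.25, 1.90 to 2.65), with 1.86 over members with Sox17, 1.87 in the Ehd3/Plat endothelium and 615 and 31.2 CPM outside the endothelium. Hspb1, a small heat shock protein, stood at 479 and 1089.7 (-1.19, -1.37 to -1.002). Of 10 heat shock genes 0 were higher and 2 lower, with the same counts over members with Sox17.

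On other lists few genes passed 2-fold in the members. No gene of 25 of oxidative phosphorylation and none of 11 measured kinesin-2 and cilium genes was at least 2-fold different in either direction, with medians of -0.17 and -0.18. Kif3b stood at 15.5 CPM in KO and 14.8 in WT, and Kifap3, the kinesin-2 adaptor, at 51.5 and 69.2. Glycolysis gave 1 higher gene of 15, Slc2a1, the glucose transporter GLUT1, with 39 UMIs in KO and 0 in WT (at least 4.52-fold), or 33.5 CPM in KO members against 73.3 outside the endothelium in KO and 28.96 in WT. Junction genes gave 1 of 16, Cdh13, an atypical cadherin, at 117 and 49.4 (1.21). In none of the lists described did the median change when genes with 0 UMIs in 1 library were set at their bound.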

How the data were processed

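The starting point was the filtered UMI count matrix of each library as deposited by the authors, 7950 KO and 6938 WT barcodes. Counts came from Cell Ranger 3.1.0 per the file headers, while the submitters' processing notes name Cell Ranger 3.0.2, Seurat 3.1.1 and mm10. Nothing upstream was rerun. The analysis used Python 3.11.15 with numpy 2.4.6, scipy 1.17.1, pandas 2.3.3, scanpy 1.11.5 (Scrublet) and matplotlib 3.10.9.

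The members and gene lists were chosen with earlier results of these data known. The admitting genes describe the cells and support no result. Removed barcodes that met the gene part of the rule were 1 of 714 in KO and 1 of 2567 in WT. Scrublet doublets were kept, and removed in an alternative. UMIs were summed over cells and divided by the group's total, and genes with at least 20 UMIs over both libraries were compared. A gene was called at 2-fold or more relative to the median gene. Ratios carry exact conditional Poisson 95% intervals and shares Clopper-Pearson intervals, which cover counting error only. With 0 UMIs in 1 library the other was set against a floor of 3. Depths per cell limit these sums, so a gene with few UMIs has a wide interval.

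Named genes were the 12 highest and 12 lowest ratios with at least 20 UMIs in the higher library, an interval leaving out 1, and a mean level at or above that outside the endothelial cells. Genes of the rule and mitochondrial, ribosomal, haemoglobin and predicted genes were left out. In each list the members with the largest ratios, and those whose role is needed, are named too, except a few genes that are not reported here. The limit of 25% of UMIs in 1 cell was added after the values had been seen. The sums were also run on simulated Poisson counts. These had no spread between cells, so they cannot check the intervals or calls of genes held mostly by few cells. Which genes belong to which list is background knowledge, and genes on several lists count in each.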

Additional observations from a re-analysis of the deposited data

Results flagged for a closer look

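Genes were flagged when KO over WT was at least 2-fold from the median gene, in opposite directions, in members and in the Ehd3/Plat endothelium. The counting intervals had to lie on either side of 1, and the level in members had to reach that outside the endothelial cells. Gene classes left out of the named genes were left out here too, and 5 genes met these limits. The difference between the 2 groups of cells was not tested, since each genotype has 1 library. Plvap gave a log2 ratio of 1.67 in members (829 CPM in KO and 259 in WT) and -1.26 in the Ehd3/Plat endothelium (35.6 and 84.5), where 1 cell held 93.1% of the WT UMIs. Exoc3l4 gave 31 UMIs in KO members and 0 in WT members, a fitted log2 ratio of 4.45 that depends on the added 0.5 UMIs, and stood at 18.5 and 43.7 CPM (-1.26) in the Ehd3/Plat endothelium. Tspan8, a tetraspanin, gave -1.02 in members (1272 and 2585) and 2.04 in the Ehd3/Plat endothelium (270.03 and 64.1). Calca, which encodes calcitonin and its gene-related peptide, gave -2.03 in members (62.7 and 257), from 11 and 13 cells, and 30 UMIs in KO and 0 in WT in the Ehd3/Plat endothelium, of which 93.3% came from 1 cell. Ifi27l2a, an interferon-induced gene, gave -0.97 in members (167 and 326), with 86.1% of the KO UMIs in 1 cell, and 5.11 in the Ehd3/Plat endothelium (251 and 5.83), with 61.2% of the KO UMIs in 1 cell.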

How the results depend on the processing

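No paired analysis was possible because the labels carry no replicate numbers, and with 1 library per genotype no replicate could be left out. The 656 genes higher in KO members numbered 1037 with cells weighted equally, 261 among genes with at least 50 UMIs and 1883 with no minimum but 1 UMI. The 473 lower genes numbered 780, 188 and 1995 under the same 3 settings, and 718 over members with Sox17 weighted equally, a setting added after the data had been seen. In the other planned settings, 12 of 15 for each direction, both counts stayed within 1.5 times. The 2 minimums change how many genes enter, and the cause of the differences under equal weighting was not tested. The ratio of the shares of kept cells was 1.28 at a mitochondrial limit of 25%. Among named genes that still met the UMI minimum and list medians of 2-fold or more, 3 values changed sign. The MHC class II median was -0.093 over members with Igfbp3, Akr1b3 gave 0.18 over members with Mgp, and Adipoq gave -1.52 when the cell with the most UMIs of each gene was left out, an added setting. List medians nearer 0, such as those of the VEGF, IGF, Notch, immediate early, cilium and oxidative phosphorylation lists, lay on both sides of 0 over the alternatives. Otherwise 382 planned list medians stayed within the 95% order-statistic interval of the list and 34 did not, and 482 and 9 planned ratios of named genes did and did not stay within their own interval. Descending vasa recta genes were the least steady: Slc14a1 ran from -4.14 to 4.71 over the 19 alternatives.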

Other observations

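Cell cycle and p53 genes were measured in few members. Of 8 cell cycle genes with enough UMIs, 2 were at least 2-fold higher in KO members and 1 lower. Tyms, the thymidylate synthase of DNA replication, stood at 61.0 CPM in KO and 12.4 in WT (log2 2.18, 1.01 to 3.97), from 49 and 4 cells, and at 57.5 and 12.9 over members with Sox17. Cdk1 gave 15 UMIs in KO and 0 in WT and Top2a 13 and 0, both too few to be compared. Of 13 p53 response genes 3 were higher and 0 lower, against 1 and 0 of 11 over members with Sox17. Plk2, a polo-like kinase, stood at 138 and 29.7 (2.17, 1.38 to 3.20), from 66 and 7 cells, against 154 and 230.2 in the Ehd3/Plat endothelium (-0.59).

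Of 8 measured mesenchymal transition genes 3 were higher and 0 lower. Ctgf and Cyr61, matricellular proteins and known targets of YAP, stood at 189 CPM in KO and 44.5 in WT (2.05), and at 88.4 and 19.8 (2.08). Col1a1, Cnn1, Twist1 and Pdgfrb were at 0 in the members of both libraries.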
